A study of Mus musculus with 8 samples.

Results

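T follicular helper (Tfh) cells sorted from immunized mice were compared with Th2 cells made in culture, on 2 arrays of each. These are 4 of the 8 arrays of the series, which also holds Th1 and Th17 cultures. The comparison covers every gene of the array that could be named by 1 symbol, each read from its probe set of highest average level across all 8, which gave 18193 genes. Of these, 11178 exceeded a log2 level of 3.13 on 2 or more arrays and were tested. That level, below which 50% of all probe set values lie, is called the filter level here, and a gene under it is said to be at the floor.

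The Tfh samples were CD4+ CXCR5+ spleen cells of C57BL/6 mice, collected by flow cytometry on day 7 of a response to the protein antigen KLH and restimulated through CD3 for 4 h. The Th2 samples were naive CD4 T cells from spleen and lymph nodes of OT-II mice, which carry a transgenic T cell receptor on the C57BL/6 background and were 6 to 8 weeks old. They were cultured for 5 days with OT-II peptide and antigen-presenting cells, with IL-4 at 10 ng per ml and an antibody to interferon gamma. The labels give no age for the Tfh mice and no restimulation for the Th2 cells. Cell type, mouse strain, source, handling and the spread of array values all changed together between the groups and cannot be told apart. Whether the replicates are separate mice or cultures is not stated either, so p-values reflect only sample-to-sample spread, which in Tfh may be technical. The Th2 replicates differ in sex-linked genes, given near the end, so they are not repeat readings of the same RNA.

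Both cell types are CD4 helper cells and both can make IL-4. Th2 cells are driven by IL-4 acting through STAT6, which raises the transcription factor GATA3, and they secrete IL-4, IL-5 and IL-13 to recruit and activate eosinophils, mast cells and alternatively activated macrophages. Tfh cells depend on BCL6, follow the chemokine CXCL13 into B cell follicles through CXCR5, and deliver IL-21, IL-4 and CD40 ligand to B cells. Genes of the IL-4, IL-5 and IL-13 locus hold promoter elements for GATA3 and NFAT, and interferon-stimulated genes hold an element named for their response to interferon.

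The promoters of genes that stood far apart between the groups are shown because their letters can be read against those levels. Each is the 250 bases before the transcription start from RefSeq on GRCm38.p6, read 5′ to 3′ along the gene's strand. Il5 lies at chr11:53720544-53720793 on the plus strand and Il13 at chr11:53634703-53634952 on the minus strand, and their capitals mark the letters AGATAA or else AGATAG or else TGATAA or else TGATAG on either strand, the forms that GATA factors prefer. Il4 lies at chr11:53618666-53618915 on the minus strand. It holds none of those 4 forms here, and its capitals mark GGAAA on either strand, the core that NFAT factors bind.
Il5: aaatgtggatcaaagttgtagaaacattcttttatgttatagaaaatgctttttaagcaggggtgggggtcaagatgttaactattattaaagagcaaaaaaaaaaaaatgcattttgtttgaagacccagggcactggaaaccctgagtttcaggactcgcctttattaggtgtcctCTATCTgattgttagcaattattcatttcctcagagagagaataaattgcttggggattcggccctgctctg
Il13: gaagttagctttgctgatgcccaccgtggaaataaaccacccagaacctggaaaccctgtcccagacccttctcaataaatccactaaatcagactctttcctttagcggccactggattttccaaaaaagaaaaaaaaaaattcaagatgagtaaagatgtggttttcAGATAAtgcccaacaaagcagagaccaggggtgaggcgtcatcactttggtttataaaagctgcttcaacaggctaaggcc
Il4: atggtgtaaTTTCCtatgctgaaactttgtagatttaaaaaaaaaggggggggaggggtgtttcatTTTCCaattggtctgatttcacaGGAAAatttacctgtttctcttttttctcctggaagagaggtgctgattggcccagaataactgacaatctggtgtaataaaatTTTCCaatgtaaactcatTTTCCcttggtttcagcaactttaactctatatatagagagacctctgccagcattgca

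Ifit1 and Rsad2 are interferon-stimulated genes that were high in Tfh. Their capitals mark, on either strand, the letters GAAA followed after any 2 bases by the same letters, the repeat of the interferon-stimulated response element. Ifit1 lies at chr19:34640639-34640888 on the plus strand with 2 matches, and Rsad2 at chr12:26456453-26456702 on the minus strand with 1.
Ifit1: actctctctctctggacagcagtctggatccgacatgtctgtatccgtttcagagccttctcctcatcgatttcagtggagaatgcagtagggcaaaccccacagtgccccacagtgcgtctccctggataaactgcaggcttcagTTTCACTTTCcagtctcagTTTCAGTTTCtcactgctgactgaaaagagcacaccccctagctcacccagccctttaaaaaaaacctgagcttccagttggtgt
Rsad2: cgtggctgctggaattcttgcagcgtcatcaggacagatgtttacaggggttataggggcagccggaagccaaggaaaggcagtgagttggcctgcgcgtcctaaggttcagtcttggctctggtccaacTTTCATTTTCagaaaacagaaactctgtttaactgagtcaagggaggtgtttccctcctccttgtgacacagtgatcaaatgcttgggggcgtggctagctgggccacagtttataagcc

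The 13 cytokine genes that were lower in Tfh in all 3 scalings described below matched the promoter table for 11, with 12 windows, and 8 of those windows held 1 of the 4 GATA forms, against 26.5% of 32851 promoter windows in the table. GGAAA was in 10 of the 12 windows and in 55.6% of all windows. Of 23 interferon-response genes that were higher in Tfh, 16 matched with 19 windows, and 8 of these held the GAAA repeat, against 2.98% of all windows. The form that STAT factors bind, TTC followed after any 4 bases by GAA, was in 3 of the 12 cytokine windows and in 5.85% of all windows. Of the 19 interferon windows, 15 held GGAAA, 5 a GATA form and 2 the STAT form. The GAAA repeat was in 1 of the 12 cytokine windows. GGAAA was thus common in both lists and not particular to the cytokine genes. A match describes the letters and not the binding of a factor.

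Values in the Tfh arrays were distributed differently from those in the Th2 arrays, which sets how many genes appear higher. As deposited, the 65th percentiles of all probe sets were 6.91 and 6.98 in Tfh and 5.29 and 5.26 in Th2, and the median tested gene was 0.84 higher in Tfh. A gene was called when its adjusted p from limma, corrected over all tested genes by the Benjamini-Hochberg method, was under 0.05 and its log2 difference was at least 1. That gave 4784 genes higher and 770 lower in Tfh. Quantile normalization over the 8 arrays moved the median gene to -0.16 and the counts to 1803 higher and 2381 lower, so the larger direction became the lower one. Shifting arrays to a common median moved them to -0.37, with 1680 higher and 3248 lower. Within-array percentile ranks, judged by adjusted p alone, gave 3063 higher and 3011 lower. Genes called the same way as deposited, after the shift and after quantile normalization, termed here all 3 scalings, numbered 1452 higher and 767 lower. The log2 ratio of 3′ to 5′ control signals, a measure of RNA quality, was 0.24 and 0.15 in Tfh and -0.23 and -0.20 in Th2 for Gapdh. For Actb it ran the other way, at 0.49 and 0.45 in Tfh and 0.59 and 0.51 in Th2, and the part of RNA quality in the results was not tested.

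**Figure D1:**
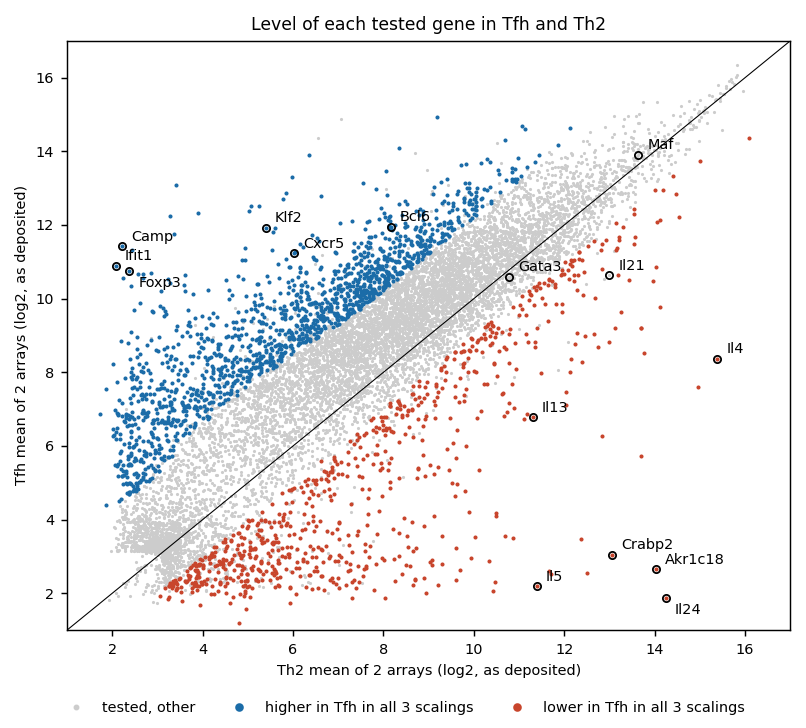
Mean log2 level of each of the 11178 tested genes in the 2 Tfh arrays (vertical axis) against the 2 Th2 arrays (horizontal axis), as deposited; the line marks equal levels. The 1452 genes higher and 767 lower in Tfh in all 3 scalings are coloured, Gata3 and Maf lie near the line, and Il4, Il5, Il13 and Il24 lie far below it.

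Th2 cytokines were lower in Tfh for most of the list. Of 16 tested cytokine and chemokine genes listed for Th2 cells, 13 were lower in Tfh and none higher, against 6.89% and 42.8% of all tested genes called lower and higher. All 13 were called in all 3 scalings, against 6.86% of all genes, and the list's median difference was -4.29 against 0.84 over all tested genes. Of the 13, 5 were at the floor on both Tfh arrays and so entered the test only through the cultured arrays, and 8 were above it. When any 1 of the 4 arrays was left out, 9 were called in each case. The 4 whose calls ended every time were Il10, Il13, Il6 and Ccl1, and of these Il6 and Ccl1 are named after their values were seen.

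Il5, the eosinophil growth factor, was at 2.21 and 2.19 in Tfh and at 11.51 and 11.28 in Th2. The Tfh values lie below the level used to filter genes, so Il5 message was not above the arrays' floor there, and the difference of -9.19 (SE 0.40, limma adjusted p = 2.19e-05) starts from that floor. Il4, which drives Th2 differentiation and antibody class switching, was measurable in both. Its level was 8.49 and 8.25 in Tfh against 15.20 and 15.57 in Th2, a difference of -7.02 (SE 1.47, limma adjusted p = 0.0072). All Th2 arrays were above all Tfh arrays for both genes, as they were for 20.0% of all tested genes. The wide error of Il4 comes from the pooled spread of 4 groups, since the Th1 arrays lay at 6.11 and 10.60. Tfh thus held Il4 at a level within the range of the Th1 arrays.

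Il13, which acts on epithelium and macrophages, was at 7.03 and 6.52 in Tfh and at 11.39 and 11.22 in Th2. The difference was -4.53 (SE 1.32, limma adjusted p = 0.0249), and the adjusted p was 0.0818 to 0.107 with any 1 of the 4 arrays left out. Il10, an inhibitor of inflammation, was at 8.44 and 8.59 in Tfh and at 13.57 and 13.95 in Th2, with a difference of -5.24 (SE 1.81, limma adjusted p = 0.0448) that rose to an adjusted p of 0.12 to 0.145 with any 1 array left out. Il9, a mast cell growth factor, was at the floor in Tfh (2.23 and 2.21) and low in Th2 (4.90 and 4.99), with a difference of -2.73 (SE 0.06, limma adjusted p = 1.78e-06).

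Il24 encodes a cytokine of the IL-10 family and had the largest difference of all named genes. It was at 1.87 and 1.86 in Tfh and at 13.93 and 14.57 in Th2, a difference of -12.38 (SE 2.40, limma adjusted p = 0.00535). Both Th1 (9.35 and 6.07) and Th17 cultures (10.80 and 3.38) had Il24 at levels between these, with a wide gap between replicates. Il3 and Csf2, the colony-stimulating factors made by activated T cells, also separated the sorted cells from the culture. Il3 was at 5.89 and 5.57 in Tfh and 12.85 and 14.55 in Th2, and Csf2 at 8.74 and 8.65 against 12.66 and 12.83. Neither was particular to Th2, since the Th1 arrays had Il3 at 14.55 and 14.94 and Csf2 at 13.13 and 13.79. The chemokine Ccl17, a ligand of CCR4, was at the floor in Tfh (2.80 and 2.79) and at 10.33 and 8.28 in Th2.

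Set against the mean of the Th1 and Th17 cultures in the same fit, 83 genes were higher in Th2 (0.743% of those tested) and 25 lower (0.224%). Of the 16 cytokine genes, 4 were among the 83: Il4 by 8.96 (SE 1.27), Il5 by 8.33 (SE 0.34), Ccl17 by 6.46 (SE 0.54) and Il9 by 2.49 (SE 0.05). These comparisons share the Th2 arrays with the comparison against Tfh. Ccl17 and Il9 were at the floor on all Tfh, Th1 and Th17 arrays. They entered both comparisons only through the Th2 arrays, where they are higher, and their differences start from that floor. Il13 was 5.27 higher in Th2 than in that mean and did not pass (limma adjusted p = 0.105).

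**Figure D2:**
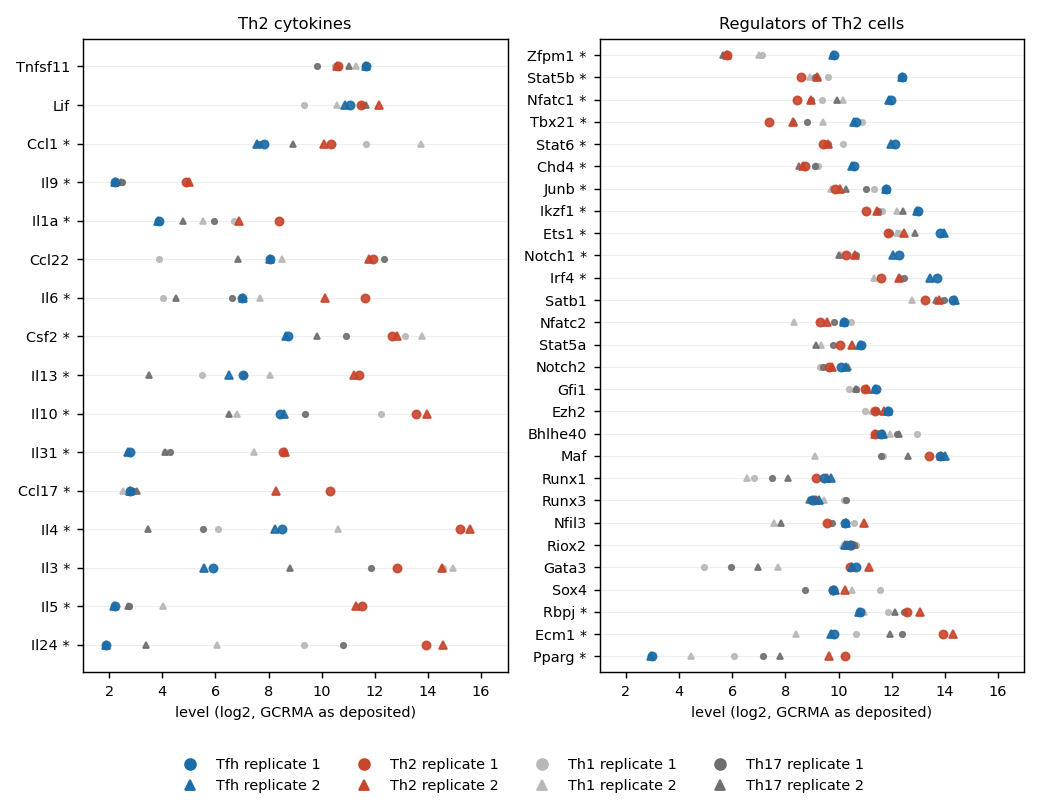
Log2 level, as deposited, of every tested Th2 cytokine (left) and Th2 regulator (right) on each of the 8 arrays; rows are ordered by the difference of Tfh from Th2, colours are cell types, shapes are replicates, and an asterisk marks a gene called between Tfh and Th2. The Th2 arrays lie to the right of the Tfh arrays for Il4, Il5 and Il24, while Gata3 overlaps between Tfh and Th2 and lies above Th1 and Th17.

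Gata3 itself was not called. Its level was 10.67 and 10.52 in Tfh and 10.44 and 11.13 in Th2, so the groups overlapped, with a difference of -0.19 (SE 0.91, limma adjusted p = 0.865). The 95% interval of that difference runs from -2.43 to 2.05, and after quantile normalization the difference was -1.13. These arrays therefore leave room for a difference of 2 log2 units either way. The Th1 arrays had Gata3 at 4.95 and 7.74 and the Th17 arrays at 5.95 and 6.97, below both. Maf, a factor that drives Il4 transcription in Th2 cells and Il21 in Tfh cells, was at 13.82 and 14.00 in Tfh and 13.39 and 13.87 in Th2. It was not called either, with an interval from -1.77 to 2.32.

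Among 28 tested regulators of Th2 cells, 11 were higher and 3 lower in Tfh as deposited, and 5 and 3 in all 3 scalings (13.0% and 6.86% of all genes). The list's median difference was 0.51, below the 0.84 of all tested genes. Stat6, the factor that carries the IL-4 signal, was at 12.13 and 11.98 in Tfh and 9.41 and 9.60 in Th2, a difference of 2.55 (SE 0.19, limma adjusted p = 0.000172). The Th1 arrays had Stat6 at 10.17 and 9.66 and the Th17 arrays at 9.61 and 9.53. Stat5b, which carries the IL-2 signal, was 3.52 higher in Tfh (SE 0.28). Neither Stat6 nor Stat5b was called between Th2 and the mean of Th1 and Th17. Zfpm1 encodes FOG-1, a partner of GATA3 that limits its activity, and was at 9.84 and 9.79 against 5.81 and 5.79. Both arrays of Tfh were above both of Th2 for these genes, as they were for 69.7% of all tested genes.

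The 3 regulators that were lower in Tfh were Pparg, Ecm1 and Rbpj. Pparg, a nuclear receptor needed for full Th2 function, was at the floor in Tfh (2.99 and 2.92) and at 10.26 and 9.64 in Th2, a difference of -6.99 (SE 0.56, limma adjusted p = 0.000203). It was also 3.59 higher in Th2 than in the mean of Th1 and Th17 (SE 0.49, limma adjusted p = 0.0386). Ecm1, a secreted protein that aids the exit of Th2 cells from lymph nodes, was at 9.83 and 9.72 against 13.94 and 14.30. Rbpj, which executes Notch signals, was at 10.83 and 10.78 against 12.57 and 13.08.

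Receptors of the Th2 type divided between the groups. Of 21 tested, 4 were higher and 5 lower in Tfh, against 42.8% and 6.89% of all genes, and 3 and 5 in all 3 scalings, against 13.0% and 6.86%. The share higher is thus below that of all genes as deposited and near it in all 3 scalings. Leaving out any 1 of Tfh replicate 1, Tfh replicate 2 and Th2 replicate 2 brought the 5 lower to 3. Il2ra, the high-affinity chain of the IL-2 receptor, was lower in Tfh at 10.01 and 9.99 against 12.33 and 13.04, and so was Ptgir, the prostacyclin receptor, at 3.44 and 4.44 against 8.56 and 8.69. Il12rb1 was 2.60 lower as well, at 7.90 and 7.92 against 10.55 and 10.48. The receptor chains higher in Tfh included Il6ra, through which IL-6 supports Tfh cells, at 9.46 and 9.61 against 4.21 and 3.78. Ifngr1, which binds interferon gamma, was at 10.65 and 10.74 against 7.00 and 7.48.

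The IL-4 receptor chain Il4ra overlapped between the groups (9.70 and 9.76 in Tfh, 9.25 and 10.72 in Th2). Ccr8, a chemokine receptor of Th2 and regulatory T cells, was at 10.21 and 10.02 in Tfh and 8.92 and 9.43 in Th2. Its Tfh arrays lay above its Th2 arrays, as for 69.7% of tested genes, but the difference of 0.94 (SE 0.86, limma adjusted p = 0.371) was not called. Ccr8 was near the floor in Th1 (2.34 and 4.33) and Th17 (4.56 and 2.56), and was called 5.72 higher in Th2 than in their mean (limma adjusted p = 0.0338). Ccr4 was at 6.04 and 6.29 in Tfh and 6.68 and 7.95 in Th2. It was not called as deposited (limma adjusted p = 0.156) but was called lower in Tfh after quantile normalization (-2.74, adjusted p = 0.0126) and after the median shift (-2.36, adjusted p = 0.021).

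Of 12 tested genes induced by IL-4 through STAT6 outside the cytokine locus, 7 were lower in Tfh and 1 higher, against 6.89% and 42.8% of all genes. The 7 were called in all 3 scalings, and 5 were called without Tfh replicate 1. Of the 7, 4 were at the floor on both Tfh arrays and so entered the test only through the cultured arrays. Epas1, which encodes the hypoxia factor HIF-2 alpha, was at 8.77 and 8.76 in Tfh and 11.42 and 13.07 in Th2, but at 2.82 to 3.68 in the 4 other cultured arrays. Arg1, the arginase of alternatively activated macrophages, was at the floor in Tfh (2.07 and 2.05) and at 11.98 and 8.84 in Th2. Xbp1, a factor for secretory cells, was 1.25 lower in Tfh at 12.31 and 12.26 against 13.43 and 13.64. The 1 gene higher, Socs1, was at 9.36 and 9.40 against 7.29 and 8.41. Its call ended after quantile normalization (0.26) and when Tfh replicate 1 (limma adjusted p = 0.0947), Tfh replicate 2 (0.1) or Th2 replicate 1 (0.0986) was left out, and without Th2 replicate 2 the list had 3 higher.

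Targets of IL-2 and STAT5 gave 7 lower and 3 higher of 24, against 6.89% and 42.8% of all genes, with a median of -0.26. All 7 were lower in all 3 scalings, and 1 of the 3 was higher, Pim2. The 3 came to 1 with Tfh replicate 1, Tfh replicate 2 or Th2 replicate 1 left out. Ccnd2, a cyclin for entry into the cell cycle, was at 12.14 and 12.03 in Tfh and 13.97 and 14.12 in Th2. Gzma, a granzyme of cytotoxic granules, was at 7.46 and 7.73 against 15.37 and 14.52, a difference of -7.35 (SE 1.36, limma adjusted p = 0.00443). Gzmb differed by -4.49 with an adjusted p of 0.0167, and its call ended when leaving out Tfh replicate 1 (0.0733), Tfh replicate 2 (0.0712) or Th2 replicate 1 (0.0798).

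Of 26 tested Tfh genes, 14 were higher in Tfh and none lower as deposited, against 42.8% and 6.89% of all genes. After quantile normalization 13 were higher and 2 lower, against 16.1% and 21.3%. In all 3 scalings 10 were higher, against 13.0% of all genes. The list's median difference was 2.33, and 1.48 after quantile normalization against -0.16 for all genes. Of the 14, 12 were above the floor in Th2, and Sostdc1 and Cebpa were at it on both arrays. Sostdc1 and Cebpa were at the floor on all cultured arrays and so entered the test only through the Tfh arrays. Each of these counts of higher genes also includes Cxcr5. Cxcr5, the receptor by which the cells were sorted and so no finding, was at 11.25 and 11.20 in Tfh and 5.36 and 6.68 in Th2. Sh2d1a encodes SAP, the adaptor that sustains contact with B cells, and was at 12.85 and 12.79 against 8.09 and 8.05, a difference of 4.75 (SE 0.50, limma adjusted p = 0.000527). Pdcd1, the inhibitory receptor PD-1, was at 12.38 and 12.31 against 9.73 and 9.16. All Tfh arrays lay above all Th2 arrays for these genes, as they did for 69.7% of all tested genes.

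Bcl6, the defining transcription factor of Tfh cells, was at 11.99 and 11.91 in Tfh and at 8.54 and 7.80 in Th2. The difference was 3.78 (SE 0.87, limma adjusted p = 0.0103), and the adjusted p passed 0.05 when leaving out Tfh replicate 1 (0.0538), Tfh replicate 2 (0.0513) or Th2 replicate 2 (0.0554). Tox, a factor that acts with BCL6 in Tfh cells, had a larger contrast, at 11.63 and 11.89 against 3.40 and 3.36. Its difference was 8.38 (SE 0.75, limma adjusted p = 0.000284), and other probe sets for Tox gave 5.49 to 8.99. Sostdc1, a secreted antagonist of BMP and Wnt signals, was at 8.78 and 8.81 against the floor (2.36 and 2.35).

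Il21 encodes a growth and differentiation signal for germinal centre B cells. It was at 10.69 and 10.59 in Tfh and 12.95 and 13.04 in Th2, below without overlap, as were 20.0% of tested genes. The difference of -2.35 (SE 0.89) did not pass as deposited (limma adjusted p = 0.0601) but was called lower in Tfh after quantile normalization (-3.20, adjusted p = 0.0237) and after the median shift (-3.57, adjusted p = 0.0143). Icos, the costimulator needed for Tfh cells, was at 13.64 and 13.45 against 11.19 and 12.29 and did not pass (limma adjusted p = 0.168). Cd40lg overlapped at 7.37 and 7.47 against 7.13 and 7.69. Its difference was 0.01 as deposited and -1.56 after quantile normalization, where it passed the test with an adjusted p of 0.0358. Prdm1, the repressor BLIMP-1 that opposes BCL6, was at 7.80 on both Tfh arrays and at 8.28 and 9.18 in Th2 and did not pass (limma adjusted p = 0.611).

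**Figure D3:**
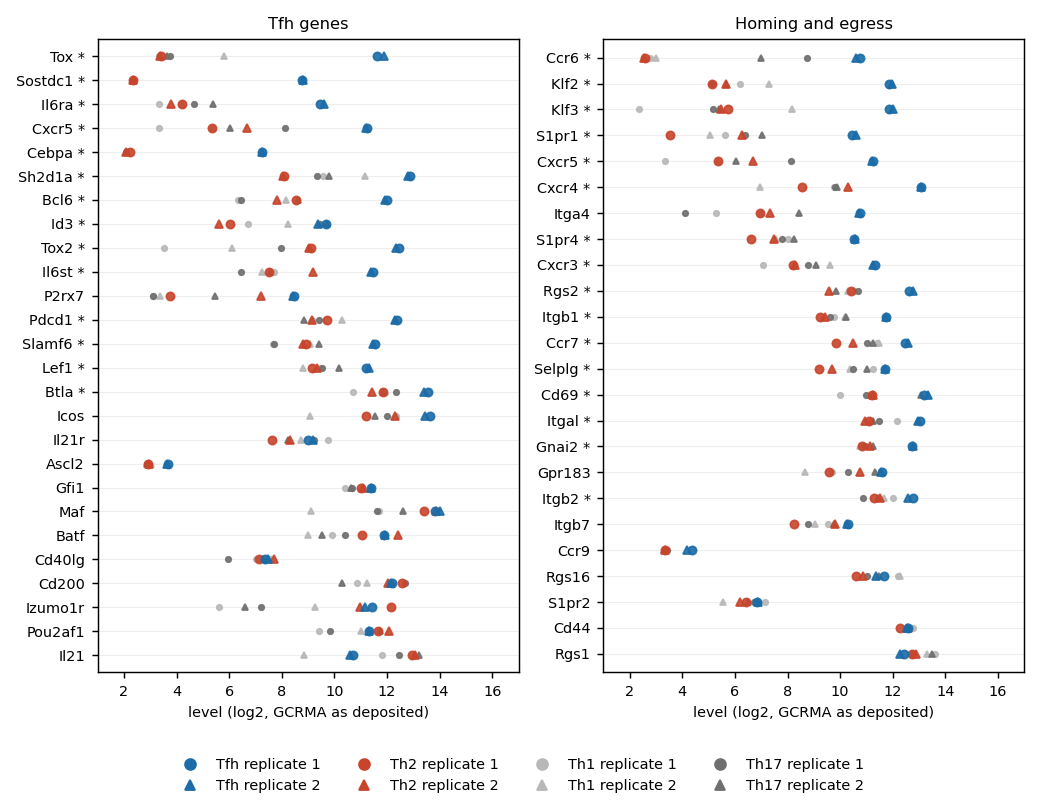
Log2 level, as deposited, of every tested Tfh gene (left) and every tested gene of homing and egress (right) on each array, drawn as in the plot of Th2 cytokines. Tox, Klf2 and Ccr6 are far to the right in Tfh, and Il21, Cd40lg and Maf do not separate in that direction.

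Of 24 genes that place T cells in tissue, 16 were higher in Tfh and none lower as deposited, against 42.8% and 6.89% of all genes, and 10 were higher in all 3 scalings, against 13.0%. The median was 2.30. Klf2, which keeps T cells in circulation by inducing S1pr1, was at 11.87 and 11.98 in Tfh and 5.13 and 5.68 in Th2, a difference of 6.52 (SE 0.43, limma adjusted p = 0.000105). S1pr1 itself, the receptor for exit from lymphoid organs, was at 10.45 and 10.62 against 3.52 and 6.26. Ccr6, which responds to CCL20, was at 10.77 and 10.59 against the floor (2.57 and 2.56), and the Th17 arrays had it at 8.73 and 6.99. Ccr7, which draws cells to the T zone, was 2.34 higher (SE 0.22), and Selplg, the selectin ligand PSGL-1, was 2.26 higher (SE 0.35). Both Ccr7 and Selplg are known to be reduced in Tfh cells relative to naive cells, which were not measured here.

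Of 30 costimulators and inhibitory receptors, 7 were higher and 4 lower in Tfh, against 42.8% and 6.89% of all genes, and 4 and 4 in all 3 scalings, against 13.0% and 6.86%. After quantile normalization 5 were higher and 8 lower, against 16.1% and 21.3%. Without Tfh replicate 1, 4 were higher. Besides Pdcd1 and Sh2d1a, Icosl, the ligand of ICOS, was at 5.98 and 5.51 in Tfh and at the floor in Th2 (2.39 and 2.43). Icosl was at the floor on all cultured arrays and so entered the test only through the Tfh arrays. Its other probe set gave a difference of 0.35. Havcr2, the inhibitory receptor TIM-3, was lower in Tfh at 5.51 and 5.38 against 8.75 and 9.67. Pdcd1lg2, a ligand of PD-1, was at 8.88 and 8.76 against 11.40 and 10.98. Cd200r1, another inhibitory receptor, was at 6.22 and 6.36 against 8.25 and 7.82. Its other probe set went the opposite way, with a difference of 0.23. The mean over its probe sets gave -0.76, too small a difference to be called.

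Of 35 early T cell receptor response genes, 18 were higher and 3 lower in Tfh, against 42.8% and 6.89% of all genes. In all 3 scalings the counts were 6 and 3, against 13.0% and 6.86%, so the list's shares were near those of all genes. Leaving out Tfh replicate 1 brought the 18 to 12. Fosb, an AP-1 subunit, was at 6.22 and 6.56 in Tfh and at the floor in Th2 (2.10 and 2.09). Fosb was at the floor on all cultured arrays and so entered the test only through the Tfh arrays. Zfp36, which promotes decay of cytokine messages, was at 12.19 and 12.07 against 8.74 and 9.01, and Nfkbiz, an inhibitor family member of NF-kB, at 12.88 and 12.92 against 9.70 and 10.07. Fosl1, another AP-1 subunit, ran the other way, at 3.49 and 3.61 against 8.78 and 8.25.

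Components of the T cell receptor and its proximal signalling were higher in Tfh for 21 of 33, with none lower, against 42.8% and 6.89% of all genes, and for 12 in all 3 scalings, against 13.0%. Cd4 was 3.03 higher in Tfh, and Cd3e was at 13.03 and 12.97 against 9.71 and 10.44. Cd3d was not called, at 14.29 and 14.21 against 13.69 and 14.17. Nfatc3, which carries calcium signals, was at 12.55 and 12.66 against 9.68 and 9.40, and Csk, which restrains LCK, was 2.88 higher (SE 0.21). Cd3d, Cd3e and Cd4, which define the labelled cell type, were above the filter level on all 8 arrays. These 3 were chosen for that check and not by the rule for naming genes.

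Naive and memory T cell genes were higher in Tfh for 15 of 22 and lower for 1, against 42.8% and 6.89% of all genes. In all 3 scalings the counts were 9 and 1, against 13.0% and 6.86%, and the median was 2.22. Besides Klf2, Ccr7 and Il6ra, which stand in other lists too, this list holds the 1 lower gene, Igfbp4, at 7.49 and 7.41 against 9.54 and 11.75. The call of Igfbp4 ended when leaving out Tfh replicate 1 (limma adjusted p = 0.0683), Tfh replicate 2 (0.0729) or Th2 replicate 2 (0.0542).

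Of 20 Th1 genes, 6 were higher and 5 lower in Tfh, against 42.8% and 6.89% of all genes, and 3 and 5 in all 3 scalings, against 13.0% and 6.86%. The share higher was below that of all genes as deposited and near it in all 3 scalings. Leaving out any 1 of the 4 arrays brought the 6 to 2 or 3, and leaving out Tfh replicate 1, Tfh replicate 2 or Th2 replicate 1 brought the 5 to 3. Stat4, which carries the IL-12 signal and is low in Th2 cells, was at 13.03 and 13.05 in Tfh and 9.15 and 9.08 in Th2. It was also 1.91 lower in Th2 than in the mean of Th1 and Th17 (limma adjusted p = 0.00559). Tbx21, which encodes T-bet, was at 10.66 and 10.59 against 7.38 and 8.30, a difference of 2.78 (SE 0.54, limma adjusted p = 0.00541). The chemokines Ccl3 and Ccl4 were lower in Tfh, Ccl3 by a difference of -3.47 and Ccl4 at 9.66 and 9.63 against 11.60 and 12.29. Ifng was at 11.34 and 11.25 in Tfh and at 14.12 and 12.09 in Th2. It did not pass as deposited (limma adjusted p = 0.15) or after quantile normalization (0.0678), and was called lower in Tfh after the median shift (adjusted p = 0.0329).

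Of 18 regulatory T cell genes tested, 6 were higher and 3 lower in Tfh, against 42.8% and 6.89% of all genes, and 3 and 3 in all 3 scalings, against 13.0% and 6.86%. The 3 lower came to 1 with Tfh replicate 1, Tfh replicate 2 or Th2 replicate 1 left out. Foxp3, the lineage factor, was at 10.79 and 10.73 in Tfh and at 2.38 on both Th2 arrays, a difference of 8.38 (SE 0.10, limma adjusted p = 6.5e-07). Foxp3 was at the floor on all cultured arrays, so it entered the test only through the Tfh arrays and its difference starts from that floor. Ikzf2, which encodes Helios, was at 12.89 and 12.84 against 5.74 and 5.95. Nt5e, which encodes CD73, was at 12.40 and 12.22 against 4.90 and 2.89, and its other probe sets gave from -1.28 to 5.90. Il2ra, also in this list, was lower in Tfh as given above. In bulk samples such as these, more cells of a type and more RNA per cell cannot be told apart. Among 16 Th17 genes, 5 were higher and 1 lower in Tfh, against the same 42.8% and 6.89%, and 3 and 1 in all 3 scalings. Stat3, which carries IL-6 and IL-21 signals, was at 13.59 and 13.49 against 10.45 and 11.22. Il17a was at 10.98 on both Tfh arrays and at 10.59 and 8.67 in Th2 and was not called (limma adjusted p = 0.0882).

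The interferon response was the list with the highest count of genes higher in Tfh: 27 of 29 as deposited and 23 in all 3 scalings, against 42.8% and 13.0% of all genes, with none lower. Its median was 4.51, and 3.31 after quantile normalization. Of the 27, 5 were at the floor on both Th2 arrays and 22 were above it. Oasl1 and Mx2 were at the floor on all cultured arrays and so entered the test only through the Tfh arrays. With any 1 of the 4 arrays left out, 25 or 26 were called. Ifit1, whose promoter is printed above with 2 matches to the response element, was at 10.71 and 11.08 in Tfh and at the floor in Th2 (2.09 and 2.08). Its difference was 8.81 (SE 1.16, limma adjusted p = 0.00117). Oasl1, an antiviral protein of the OAS family, was at 7.95 and 8.09 against 2.70 and 2.69, Oas2 at 7.08 and 7.07 against 3.72 and 3.54, and Mx2 at 5.80 and 6.57 against 2.08 and 2.07. Rsad2, the antiviral enzyme viperin whose promoter is also shown, was at 10.37 and 10.68 against 3.25 and 3.22, and is named after its values were seen. The 2 genes that were not called were Zbp1 and Isg20. The median level of the list on each array was 10.08 and 10.31 in Tfh, 5.41 and 4.85 in Th2, and 4.43 to 5.92 on the 4 Th1 and Th17 arrays.

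**Figure D4:**
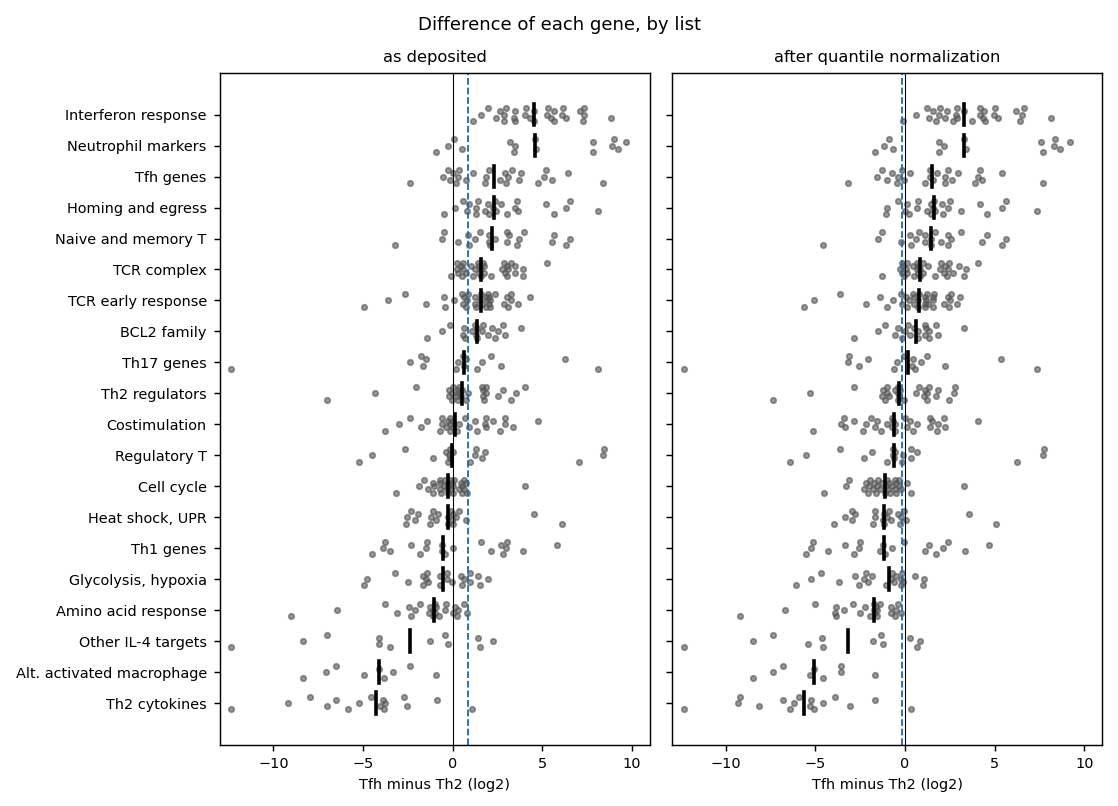
Difference of Tfh from Th2 (log2) for every tested gene of 20 lists, as deposited (left) and after quantile normalization (right); bars are list medians, and the dashed line is the median of all tested genes (0.84 and -0.16). Interferon-response genes lie to the right of the dashed line in both panels, and Th2 cytokines to the left except Tnfsf11 (1.08 as deposited).

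Cell cycle genes gave 7 of 32 lower in Tfh and 1 higher, in all 3 scalings as well, against 6.89% and 42.8% of all genes as deposited. After quantile normalization 16 were lower, against 21.3%. Leaving out either Tfh array or Th2 replicate 1 brought the 7 to 3, a share near that of all genes. Cdc6, which licenses replication origins, was at 7.64 and 7.74 in Tfh and 11.17 and 10.53 in Th2. Rrm2, a subunit of ribonucleotide reductase, was 1.35 lower, at 11.45 and 11.53 against 12.99 and 12.69. The 1 gene higher was Cdkn1b, the inhibitor p27, at 12.51 and 12.61 against 8.21 and 8.84, a difference of 4.03 (SE 0.37, limma adjusted p = 0.000307).

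Of 22 glycolysis and hypoxia genes, 8 were lower in Tfh in all 3 scalings, against 6.86% of all genes. As deposited 2 were higher, against 42.8% of all genes, but not in all 3. Leaving out any 1 of the 4 arrays brought the 8 to 4. Hk2, an inducible hexokinase, was at 8.92 and 8.75 against 11.28 and 11.42, while Hk1, the constitutive form, was at 11.26 and 11.14 against 8.98 and 9.54. Ak4 was at the floor in Tfh (2.24 and 2.23) and at 6.84 and 7.51 in Th2, and its other probe sets gave from -3.77 to 0.01. Of 24 amino acid response genes, 4 were lower and none higher, against 6.89% and 42.8% of all genes, and 10 were lower after quantile normalization, against 21.3%. The 4 came to 2 without either Tfh array or Th2 replicate 1. Cth, which makes cysteine, was at the floor in Tfh (2.63 and 2.60) and at 12.27 and 11.04 in Th2, and Asns, asparagine synthetase, at 8.29 and 8.45 against 12.64 and 11.65. Of 21 heat shock and unfolded protein genes, 7 were lower in all 3 scalings, against 6.86% of all genes, and 11 after quantile normalization, against 21.3%. Hspa1a, the inducible HSP70, was 6.09 higher as deposited, with both Th2 arrays at the floor, and its call (limma adjusted p = 0.0415) ended in both other scalings and with any 1 of the 4 arrays left out (0.123 to 0.135). Manf, induced by stress in the endoplasmic reticulum, was at 12.21 and 12.24 against 14.71 and 14.36. The 7 came to 4 with Tfh replicate 1, Tfh replicate 2 or Th2 replicate 1 left out.

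Cholesterol synthesis gave 2 higher and 1 lower of 16, against 42.8% and 6.89% of all genes. The 2 higher, Srebf2 and Dhcr7, were not called in all 3 scalings or with any 1 of the 4 arrays left out (limma adjusted p of 0.0829 to 0.119 over both). Hsd17b7 was lower, at 6.72 and 6.80 against 9.82 and 10.31, and its other probe sets gave from -3.13 to -0.10. BCL2 family and related apoptosis genes gave 12 of 20 higher and none lower as deposited, against 42.8% and 6.89% of all genes. In all 3 scalings 4 were higher, against 13.0%, and after quantile normalization 6 were higher and 2 lower, against 16.1% and 21.3%. Bbc3, which encodes the death activator PUMA, was at 7.30 and 7.52 against 4.62 and 4.59, and Gimap3, a GTPase of T cell survival, at 13.21 and 13.26 against 9.01 and 9.80.

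Markers of other cell types differed between the groups and, within Th2, between replicates. Of 15 neutrophil markers, 10 were higher in Tfh and none lower, against 42.8% and 6.89% of all genes, and 7 in all 3 scalings, against 13.0%. The count as deposited fell when either Tfh array was left out and rose without Th2 replicate 1. Of the 10, 3 were at the floor on both Th2 arrays and 7 were above it. Camp and Ltf were at the floor on all cultured arrays and so entered the test only through the Tfh arrays. The summed level of the list on the log2 scale was 16.21 and 16.15 in Tfh and 14.17 and 10.95 in Th2, and no marker was below the filter level on both Tfh arrays. Ngp, a neutrophil granule protein, was at 13.13 and 13.02 in Tfh and 4.68 and 2.12 in Th2, a difference of 9.68 (SE 0.76, limma adjusted p = 0.000191). Camp, the granule peptide cathelicidin, was at 11.48 and 11.36 against the floor (2.23 and 2.22). Th2 replicate 1 had S100a8 at 11.10, and replicate 2 had it at 3.04, against 14.93 and 14.85 in Tfh. S100a8 was called as deposited (limma adjusted p = 0.0408) but not after quantile normalization (0.0537) or the median shift (0.0661), and the call ended when leaving out Tfh replicate 1 (0.134), Tfh replicate 2 (0.13) or Th2 replicate 2 (0.09).

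Th2 replicate 1 was more than 1 log2 unit above replicate 2 for 10 of 15 neutrophil markers, 14 of 23 macrophage and dendritic cell markers, 9 of 14 markers of alternatively activated macrophages, 9 of 16 basophil and mast cell markers and 3 of 10 erythroid and platelet markers. Over all tested genes the share was 3.98%. Replicate 2 was higher by that margin for 11 of 19 B cell markers, against 2.25% of all tested genes. Of the 17 Th2 cytokines on the array, 13 lay within 1 unit between the replicates, Il4, Il5 and Il13 among them. Over all genes 10482 of the 11178 tested did. Replicate 1 was higher by more than 1 unit for 3 cytokines (17.6%) and replicate 2 for 1 (5.88%), shares above those of all tested genes. Mcpt8, a basophil protease, was at 9.17 and 2.63 in Th2 and 4.45 and 4.42 in Tfh, and Cpa3, a mast cell protease, at 9.25 and 3.13 against 2.22 and 2.21. Neither was called as deposited, and Cpa3 was called lower in Tfh after the median shift (-5.19, adjusted p = 0.048). Without Th2 replicate 1, Mcpt8 was called higher in Tfh by 1.81 (limma adjusted p = 0.00167).

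**Figure D5:**
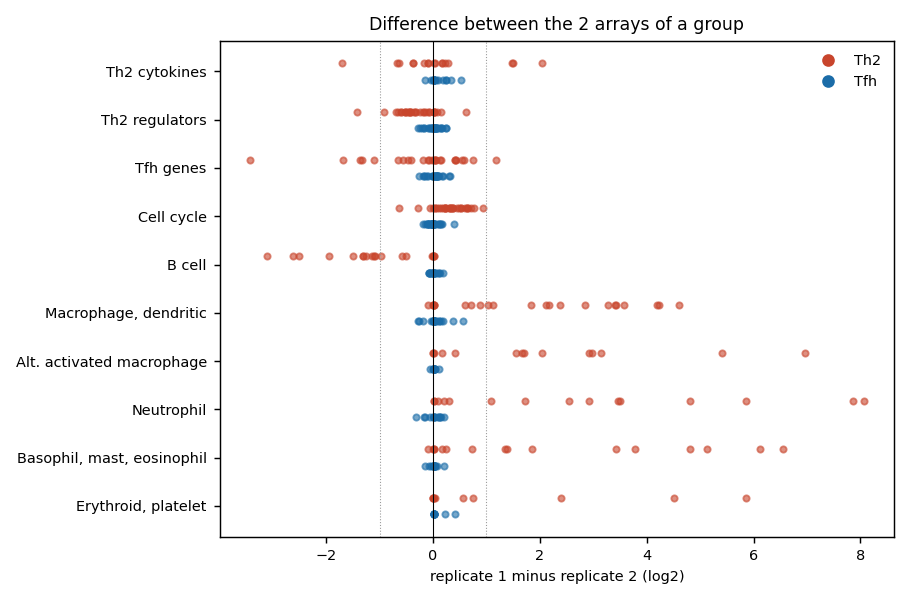
Replicate 1 minus replicate 2 (log2) for each gene of 10 lists, for Th2 and Tfh separately; dotted lines mark a difference of 1. The Tfh points stay within 1 of 0, and the Th2 points of myeloid, basophil and platelet markers extend above 4 while those of B cell markers extend below -2.

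Markers of alternatively activated macrophages, cells that IL-4 induces, are described without reading a count from them, because 11 of the 14 on the array were at the floor on both Tfh arrays. The filter left out 5 of the 14, and 5 of the 6 called lower in Tfh entered the test only through the cultured arrays where they are high. The exception was Pdcd1lg2, given above. The list's summed level was 11.75 and 11.78 in Tfh and 14.83 and 13.11 in Th2, and Retnla, Cd163 and Folr2 were below the filter level on both Th2 arrays. Ccl24, an eosinophil chemoattractant, was at the floor in Tfh (2.64 on both) and at 10.55 and 8.85 in Th2. Ccl24 was also 7.26 higher in Th2 than in the mean of Th1 and Th17 (SE 0.57, limma adjusted p = 0.00612). Several genes that the Th2 lists name, Ccl17 and Arg1 among them, stand in this list too, and the part of macrophages in their levels was not tested. Macrophage and dendritic markers gave 1 higher and 3 lower of 16, against 42.8% and 6.89% of all genes. Their summed levels were 14.54 and 14.47 in Tfh and 14.22 and 12.30 in Th2. Leaving out Th2 replicate 1 gave 4 higher, and leaving out any other of the 4 arrays gave 0. The 1 higher as deposited was Ctss, a lysosomal protease, at 13.40 and 13.39 against 12.44 and 11.41, and its call ended when leaving out Tfh replicate 1 (limma adjusted p = 0.0553), Tfh replicate 2 (0.0544) or Th2 replicate 2, where the difference fell to 0.95.

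Over all tested genes, 42.8% were called higher in Tfh as deposited and 6.89% lower. B cell markers were present in both groups, with summed levels of 14.26 and 14.25 in Tfh and 13.81 and 14.58 in Th2. Of 16 tested, 3 were higher in Tfh and none lower, and 7 were higher without Th2 replicate 2. Cd74, the invariant chain of MHC class II, was at 12.02 and 12.05 in Tfh and 10.74 and 11.70 in Th2 and was not called. Ighm, the IgM heavy chain, was at 12.83 and 12.84 against 13.27 and 13.85, and its other 10 probe sets gave differences from -0.19 to 5.43. The B cell factor Pax5 was below the filter level in both groups. Of 12 CD8 and NK markers, 2 were higher and 3 lower in Tfh, against 42.8% and 6.89% of all genes. Gzmk, a granzyme, was among those higher, at 8.32 and 8.51 against the floor (2.55 and 2.53). With Tfh replicate 1, Tfh replicate 2 or Th2 replicate 1 left out the 3 lower came to 1, and the 2 higher came to 1 without either Tfh array or Th2 replicate 2. Of 9 basophil, mast cell and eosinophil markers, 2 were higher and 2 lower, against 42.8% and 6.89% of all genes. Among them were Kit at 8.50 and 8.47 against 2.72 and 2.49 and Siglecf at 3.03 and 2.95 against 8.35 and 7.01. Without Th2 replicate 1 the count higher was 4, without Th2 replicate 2 the count lower was 5, and without either Tfh array the count lower was 1. Cd163l1, the single tested marker of NKT and gamma delta cells, was at 8.28 and 8.30 in Tfh against 3.57 and 2.86. Of 4 tested erythroid and platelet markers, 2 were lower in Tfh, Itga2b and Pf4, against 6.89% of all genes. Pf4 was at 4.85 and 4.44 against 11.84 and 7.33, and its call ended when leaving out Tfh replicate 1 (limma adjusted p = 0.113), Tfh replicate 2 (0.135) or Th2 replicate 1 (0.128).

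Sex-linked and T cell receptor genes were chosen after their values were seen. Eif2s3y, on the Y chromosome, was at 3.12 and 3.08 in Tfh, at 11.10 in Th2 replicate 1 and at 2.42 in Th2 replicate 2. Xist, transcribed from the inactive X, was at 13.83 and 14.09 in Tfh, 5.48 in Th2 replicate 1 and 11.92 in Th2 replicate 2. Th2 replicate 2 was on the same side as Tfh for both genes, and Th2 replicate 1 on the other. The OT-II receptor is a single pair of chains, and no segment here was matched to it. Trbv13-2 was at 8.79 and 8.77 in Tfh and 4.40 and 4.29 in Th2, and Trav9d-3 was at 14.37 and 14.33 in Tfh and 16.05 and 16.10 in Th2. Trav12n-2 and Trav6-3 were also called higher in Tfh as deposited, and Trav12n-1 and Trbv1 were not called. Trbv1 was at 15.21 and 15.25 in Tfh and 14.45 and 14.69 in Th2. The other cultures, from the same transgenic line, had Trav9d-3 at 15.77 to 15.97.

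Beyond the lists, the 12 largest differences each way among genes called in all 3 scalings with no overlap of arrays were set out by rule. No overlap in itself is common, holding for 69.7% of tested genes above and 20.0% below. Those higher in Tfh were Ngp, Camp, Lcn2, Ltf, Ifit1, Nt5e, Tox, Foxp3, Ccr6, St6galnac3, Pou6f1 and Ifi213, by 9.68 to 7.88. Lcn2, which binds bacterial siderophores, was at 12.25 and 12.23 in Tfh and 3.81 and 2.73 in Th2, and Ltf, the granule protein lactoferrin, at 11.33 and 11.32 against 2.53 and 2.33. For Pou6f1 and St6galnac3, other probe sets of the same gene differed less, by 0.33 and by 0.07 to 4.12. Both genes, like Camp, Ltf and Foxp3, were at the floor on all cultured arrays and so entered the test only through the Tfh arrays.

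Those lower in Tfh were Il24, Akr1c18, Crabp2, Nts, Il5, Mmp12, Cth, Inhba, Arg1, Serpinf1, Il3 and Gja1, by -12.38 to -7.48. Akr1c18, which inactivates progesterone, was at the floor in Tfh (2.65 and 2.64) and at 15.09 and 12.97 in Th2. Nts, the neuropeptide neurotensin, was at 2.56 and 2.52 against 13.83 and 11.18. Inhba, a subunit of activin A, was at 3.51 and 3.42 against 12.23 and 12.49, but its other probe set gave a difference of -0.06. Crabp2, which carries retinoic acid, was at 3.40 and 2.69 against 12.50 and 13.63, and Gja1, the gap junction protein connexin 43, at 2.90 and 2.83 against 10.20 and 10.48. Crabp2 and Gja1 were also high in the other cultures, at 10.62 to 11.73 and 8.33 to 10.15, and neither was called between Th2 and their mean.

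Genes that set Th2 apart from both Tfh and the other cultures were led by Il4, Epas1, Il5, Akr1c18, Myo6 and Ccl24. Myo6, an unconventional myosin, was at 3.67 and 4.66 in Tfh, 9.17 and 11.80 in Th2 and 2.53 to 2.98 in the 4 other cultured arrays. In the opposite direction were Ms4a4c, Ms4a4b, Prickle1, Mfhas1, Stat4 and Fam169b, which were lower in Th2 than in both. Ms4a4b, a membrane protein of T cells, was at 14.90 and 14.97 in Tfh, 9.06 and 9.33 in Th2, 14.21 and 14.40 in Th1 and 11.29 and 12.37 in Th17. Ms4a4c followed at 9.54 and 9.75 in Tfh against 2.89 and 2.91 in Th2. The difference of Prickle1 (3.16) was not seen in its other probe sets, which gave from -0.37 to 0.27.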

How the data were processed

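RNA of 8 mouse samples was labelled by in vitro transcription and measured on Affymetrix arrays of 45101 probe sets. The authors deposited log2 values summarized with GCRMA, per the submitters' processing notes; its version and which arrays were normalized together are not given in the sources used here. Symbols came from the platform's probe table, and a check of its gene IDs in RefSeq (GRCm38.p6) changed 0 of them: 34945 probe sets had 1 symbol, 932 several, 9160 none and 64 were controls.

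The values were used as deposited. A limma model (limma 3.58.1, R 4.3.3) held a mean for every group of the 8 arrays, with a trended empirical Bayes prior (4 residual and 1.78 prior degrees of freedom). SE is that of the fit. Tests were two-sided, and p-values were adjusted over 11178 genes. An exact permutation test of 2 arrays against 2 cannot go below p = 0.333 and was not used. The number of arrays limits the precision. The procedure was tested on simulated data for Tfh against Th2 with 11178 genes. In these, 50 genes were changed at each size and every other gene had the same mean in all groups. It recovered 22% of changes of 1 log2 unit, 60% of changes of 2, 88% of changes of 4 and 98% of changes of 8. The real arrays differ from that setting, with the median tested gene 0.84 higher in Tfh and far more genes called. These shares therefore belong to the simulated setting, and a gene not called may still differ.

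The comparison, the 29 lists and the alternatives were chosen with earlier results of these data known. Genes named were the 12 largest differences each way in all 3 scalings, the 6 each way that also set Th2 apart from Th1 and Th17, a set of lineage genes, up to 3 members of each list in each direction by adjusted p, and for other cell types the 3 highest in each group. Some listed genes are not reported here. Alternatives were other scalings, filters, probe set choices, variance models, a fold minimum of 2, leaving out each array, the Tfh arrays averaged, and the replicate number as a block. List counts with an array left out were added after seeing the data. Plots used matplotlib 3.10.9 in Python 3.11.15.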

Additional observations from a re-analysis of the deposited data

How the results depend on the processing

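Genes higher and lower in Tfh numbered 4784 and 770 as deposited, 1803 and 2381 by quantile normalization, 1680 and 3248 with medians matched, 1938 and 2585 after quantile normalization with a fit on the 4 arrays, and 3063 and 3011 by ranks. With a fold minimum of 2 log2 units they numbered 2278 and 366, and 628 and 366 in all 3 scalings. Leaving out 1 array gave 4139 to 4855 higher and 540 to 801 lower, and 1090 to 1508 and 538 to 799 in all 3 scalings. Th2 against the mean of Th1 and Th17 (83 higher, 25 lower) gave 89 to 93 higher in other scalings, but 31 to 138 and 4 to 108 with 1 array left out, 31 and 4 with the Tfh arrays averaged, 9 lower with the fold minimum and 55 lower by ranks. Named genes that changed direction, with a call as deposited or in the other setting, were Cd40lg, Pim1, Slc4a1, Ighm and Mcpt8. Cd40lg gave -1.56 after quantile normalization and -1.50 with the 4-array fit. With medians matched, Pim1 gave -0.10 and Slc4a1 -1.12. Ighm gave 1.47 as the mean of its probe sets. Mcpt8 gave 1.81 without Th2 replicate 1 and -4.74 without Th2 replicate 2. Other named genes changed sign without a call in either setting, 4 after quantile normalization and 5 with medians matched. The cause was not tested. Same-numbered Tfh and Th2 arrays did not deviate together (r = -0.0018 across genes, which are not independent replicates). Among same-numbered cultures r was 0.268 for Th2 with Th17, 0.255 for Th1 with Th17 and 0.0044 for Th2 with Th1. The replicate number as a block gave 4833 higher and 795 lower, and ended the call of Pim1 (limma adjusted p = 0.0507) and added one of Ccr4 (-1.15, limma adjusted p = 0.0396); it changed no other named gene's call. The 2 arrays per group limit every value here.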

Other observations

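Probe sets without a single gene symbol were not part of the comparison. They numbered 10092, of which 4350 were above the filter level in at least 2 arrays, and their median difference of Tfh from Th2 was 1.53 as deposited, against 0.84 for the tested genes.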
